A study of Homo sapiens with 7 samples.

Results

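The MHC class I presentation genes followed here are 9 genes: the heavy chains HLA-B, HLA-C, HLA-E and HLA-F, the light chain B2M, the peptide transporter subunits TAP1 and TAP2, the loading chaperone TAPBP and the transcriptional activator NLRC5. They were picked by gene symbol from 60662 genes, by their role and not by a threshold on measured values, though with earlier results of these data known, and each of the 9 symbols matched 1 gene and passed the filter on low counts in every fit. Total RNA was sequenced from PF-382 and MOLT-14, which are 2 human cell lines of T-ALL, an acute leukaemia of T-cell precursors. The purpose named in the series is the effect of inactivating STAG2, which belongs to cohesin, the complex that ties sister chromatids and shapes DNA loops. In PF-382, 3 libraries came from STAG2 knockout cells (KO), made by delivering Cas9 protein with its guide RNA, and 2 came from untreated wild-type cells (WT). MOLT-14 cells had been transduced either with STAG2 (1 library) or with a vector lacking an insert (EV, empty vector, 1 library). All cells were grown in the same medium with fetal bovine serum, and the labels record no other treatment. The labels do not say whether the knockout cells were clones or a pool, nor whether libraries of a group came from separate cultures, so the p values measure the spread between these libraries, which may be technical. The WT cells are not described as having received Cas9, so delivery of the protein and loss of STAG2 cannot be told apart. The library titles carry SA codes for WT 1, WT 2 and KO 1, and SB codes for KO 2 and KO 3. What these codes mean is not stated.

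Class I molecules show peptides from inside the cell to CD8+ T cells and to natural killer cells. The proteasome cuts proteins to peptides, the TAP1 and TAP2 dimer pumps them into the endoplasmic reticulum, and TAPBP (tapasin) holds an empty heavy chain bound to B2M beside the pump until a peptide fits. HLA-B and HLA-C are classical heavy chains, HLA-E presents mostly leader peptides of other class I chains to NKG2A receptors, and HLA-F is a non-classical chain with a more limited known role. NLRC5 is a nucleotide-binding protein that joins the RFX, CREB/ATF and NF-Y factors on class I promoters and raises transcription of heavy chain, B2M and TAP1 genes. Of the 9 genes, 7 lie in the MHC on chromosome 6, in GRCh38 coordinates of GENCODE 29. HLA-F (ENSG00000204642.14) spans 29722775 to 29738528 and HLA-E (ENSG00000204592.9) 30489467 to 30494205, both on the plus strand. HLA-C (ENSG00000204525.16) spans 31268749 to 31272130 and HLA-B (ENSG00000234745.11) 31269491 to 31357188, both on the minus strand, and the annotated span of HLA-B thus overlaps HLA-C. TAP2 (ENSG00000204267.15) spans 32821833 to 32838780, TAP1 (ENSG00000168394.11) 32845209 to 32853978 and TAPBP (ENSG00000231925.11) 33299694 to 33314387, all on the minus strand. B2M (ENSG00000166710.20) lies on chromosome 15, 44711487 to 44718877, and NLRC5 (ENSG00000140853.15) on chromosome 16, 56989485 to 57083531, both on the plus strand.

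RefSeq promoter sequence (GRCh38.p14) matched 7 of the 9 genes, all but HLA-E and NLRC5. The 180 bases before the start site are shown for 4 of them, 2 of the heavy chains, their light chain, and TAPBP, the gene that rose in the knockout, so that the boxes they share and those they do not can be read side by side. Each runs 5′ to 3′ on the gene's own strand, and capitals mark the letters of a searched motif. The windows are chr6:31357180-31357359 for HLA-B, chr6:31272093-31272272 for HLA-C and chr6:33314079-33314258 for TAPBP, all on the minus strand, and chr15:44711337-44711516 for B2M on the plus strand.
HLA-B: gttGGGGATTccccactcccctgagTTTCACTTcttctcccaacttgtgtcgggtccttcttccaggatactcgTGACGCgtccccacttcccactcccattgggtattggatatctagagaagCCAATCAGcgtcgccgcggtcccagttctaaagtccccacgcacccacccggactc
HLA-C: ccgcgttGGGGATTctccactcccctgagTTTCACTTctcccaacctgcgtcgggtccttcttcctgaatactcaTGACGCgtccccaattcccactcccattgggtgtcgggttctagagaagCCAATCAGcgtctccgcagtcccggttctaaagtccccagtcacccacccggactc
B2M: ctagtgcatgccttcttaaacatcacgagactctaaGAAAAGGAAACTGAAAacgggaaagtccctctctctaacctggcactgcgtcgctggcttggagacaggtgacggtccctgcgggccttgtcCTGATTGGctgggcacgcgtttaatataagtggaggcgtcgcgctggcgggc
TAPBP: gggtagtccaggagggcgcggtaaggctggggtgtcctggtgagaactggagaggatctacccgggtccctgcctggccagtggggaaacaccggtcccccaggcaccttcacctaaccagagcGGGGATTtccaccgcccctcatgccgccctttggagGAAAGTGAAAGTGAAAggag

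Motifs were searched on both strands of the 250 bases before the start site, and the share of 35116 RefSeq promoters with a match is given for each. CCAATCAG, the Y box bound by NF-Y, was found in HLA-B, HLA-C, HLA-F and B2M (3.81% of all promoters). TGACGC, the core of the X2 box bound by CREB and ATF proteins, was found in HLA-B, HLA-C and TAP2 (7.67%). GGGGATT, part of the kappa-B site of class I promoters, was found in HLA-B, HLA-C and TAPBP (3.19%). AAGTGAAA, which belongs to the interferon element of class I promoters, was found in those same genes (1.37%), as TTTCACTT in HLA-B and HLA-C. GAAA repeated after a gap of any 2 bases, the pattern of interferon-stimulated response elements, was found in HLA-F, B2M, TAP1, TAP2 and TAPBP (3.02%), and in TAPBP it overlaps AAGTGAAA. HLA-B and HLA-C were 87.5% identical over the printed windows, and HLA-B and TAPBP 47.2%. These are matches of letters and do not show that a factor bound.

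The libraries held 32609485 to 93970572 counts, and a count of 3 corresponded to 0.0347 to 0.0972 CPM, the count relative to library size, here with TMM factors over the 7 libraries. The KO libraries were the deepest, at 65262329 to 93970572 counts, against 32609485 and 33145516 in WT. The intervals and floors given here cover counting error alone. STAG2 had 256, 179.8 and 195 CPM in the KO libraries, against 334 and 567 CPM in the WT libraries (log2 change -1.13, SE 0.26, adjusted p = 0.0218 in edgeR's quasi-likelihood test). STAG2 RNA was thus lower, not absent, in the KO libraries, and the call was lost without KO 2 (adjusted p = 0.0757) or KO 3 (0.0773). Among the MOLT-14 libraries, STAG2 had 6878 counts after STAG2 transduction and 56 with EV. T-lineage markers summed to 2848 to 3141 CPM in KO, 2947 to 3283 CPM in WT, 2325 CPM in the STAG2-transduced and 2139 CPM in the EV library. Of the 12, CD5 (log2 change -0.95, adjusted p = 0.00410) and GATA3 (-0.89, adjusted p = 0.0262) fell in KO. Between the lines, 6 of the 12 were called higher and 2 lower in PF-382. Similar sums hid large differences: CD7 averaged 25.2 CPM in PF-382 and 420 CPM in MOLT-14, and PTCRA 52.7 and 0.131 CPM. Myeloid markers summed to 0.669 to 1.47 CPM in KO and 17.7 to 28.3 CPM in WT, of which CD68 and ITGAM, the 2 of 9 that could be tested, fell in KO. CD14 was at most 0.0683 CPM and LYZ at most 0.0347 CPM in PF-382, and SPI1, CD33 and FCGR3A were at 0 there. B-lineage markers summed to 4.47 to 19.8 CPM in KO, 9.68 to 41.9 CPM in WT, 42.5 CPM in the STAG2-transduced and 30.6 CPM in the EV library, and of 3 tested BLNK fell in KO (-6.83, adjusted p = 0.00218). Natural killer markers summed to 13.5 to 16.2 CPM in KO and 14.1 to 18.5 CPM in WT. Stromal and epithelial markers summed to 7.30 to 9.95 CPM in KO and 10.7 to 26.9 CPM in WT, of which 1 of 3 tested, KRT8, fell in KO (-4.53, adjusted p = 0.00299). In the STAG2-transduced and EV libraries, myeloid markers summed to 1.95 and 4.28 CPM and natural killer markers to 23.5 and 22.6 CPM. Stromal and epithelial markers summed to 1.19 CPM in each of these libraries. Small RNA genes took 11.96% to 13.98% of the counts in KO, 21.0% in WT 1 and 14.9% in WT 2, and 9.27% in the STAG2-transduced and 4.87% in the EV library. The part of these differences in the results below was not tested.

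Per unit of length, in the authors' TPM, B2M was the most abundant of the 9 genes in each of the 7 libraries. It had 1129, 1001 and 1198 TPM in KO, 881 and 1628 TPM in WT, 349.8 TPM in the STAG2-transduced and 512 TPM in the EV library. HLA-B was next in PF-382, at 109.7, 90.1 and 151 TPM in KO and 261 and 170.5 TPM in WT, ahead of HLA-C at 45.5 to 54.8 TPM in KO and 62.2 to 79.2 TPM in WT. In MOLT-14 these genes stood level in TPM, with HLA-B at 60.1 TPM and HLA-C at 60.9 TPM in the STAG2-transduced library, and at 83.6 and 84.9 TPM with EV. How HLA-B and HLA-C compare depends on the length used. Counts and FPKM imply 627 to 723 bases for HLA-B, against 1261 to 1299 for HLA-C. In CPM, which ignores length, HLA-B led less in KO (144, 151 and 235, against 129.6, 137 and 172). In MOLT-14 HLA-B was lower in CPM, at 56.9 with STAG2 and 57.0 with EV, against 118 and 111 for HLA-C. HLA-E and TAPBP changed places between the PF-382 groups. TAPBP had 24.4 to 30.8 TPM and HLA-E 10.9 to 15.6 TPM in KO, whereas TAPBP had 13.0 and 13.8 TPM and HLA-E 43.1 and 27.9 TPM in WT. TAP1, TAP2, HLA-F and NLRC5 were each under 10 TPM in every PF-382 library. HLA-B, HLA-C and TAP2 had fractional expected counts in 6 or 7 of the libraries, a sign that reads were shared with other genes or copies, so their levels are less certain than those of B2M, TAP1, TAPBP and NLRC5, whose counts were whole.

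**Figure D1:**
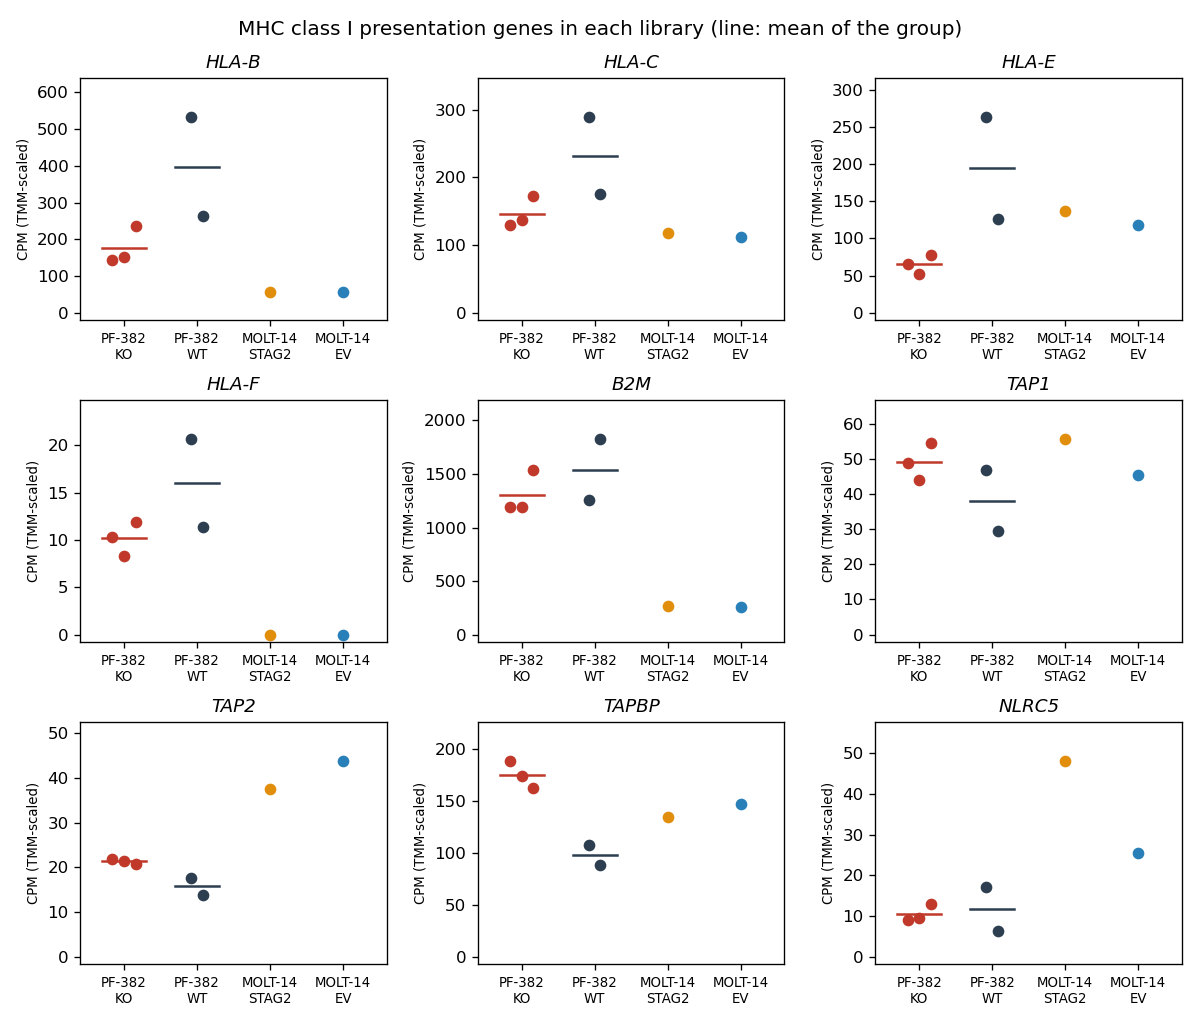
Level of each of the 9 genes in CPM (vertical axes, linear from 0) in each library, by group (horizontal axes), with a line at the mean of a group. HLA-B and HLA-E sit lower in the 3 KO libraries than in both WT libraries, TAPBP sits higher, and HLA-F is at 0 in MOLT-14.

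In PF-382, the comparison of KO with WT asks which of these genes change when STAG2 is inactivated. HLA-B and HLA-E, 2 of the 4 heavy chains, fell in the knockout and the chaperone TAPBP rose, and the other 6 genes did not pass the test, so 1 of the 9 genes was higher and 2 were lower. A gene is called here when its adjusted p is under 0.05, and of all 17442 genes tested 30.4% were called, 15.8% higher and 14.6% lower. The share called among the 9 genes was therefore close to that of all genes. Their median log2 change was -0.27, against -0.02 over all genes. Groups did not overlap for 5 of the 9: KO lay above WT for TAP2 and TAPBP (31.8% of all genes) and below it for HLA-B, HLA-C and HLA-E (28.3%). In bulk RNA, fewer cells expressing a gene and less RNA per cell cannot be told apart.

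HLA-E showed the largest change of the 9 genes in this comparison. It had 65.2, 52.6 and 77.4 CPM in the KO libraries, against 263 and 126 CPM in the WT libraries. Every KO library lay below both WT libraries, and the WT libraries differed from each other by 2.08-fold. The log2 change was -1.61 (SE 0.31, 3.05-fold lower, adjusted p = 0.0130), and it ranged from -2.02 to -0.98 when 1 library was left out, with the call lost without KO 1 (adjusted p = 0.0504).

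HLA-B, a classical heavy chain, had 144, 151 and 235 CPM in the KO libraries, against 532 and 262 CPM in the WT libraries. The highest KO library lay just under the lower WT library, and WT 1 stood 2.03-fold above WT 2. The log2 change was -1.20 (SE 0.34, 2.29-fold lower, adjusted p = 0.0389). This call was fragile: it was lost without KO 1 (adjusted p = 0.116), KO 2 (0.115), KO 3 (0.0502) or WT 1 (0.135), and without WT 1 the log2 change was -0.59.

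HLA-C followed the same order of libraries, with 129.6, 137 and 172 CPM in KO, against 289 and 176 CPM in WT. The groups did not overlap, but KO 3 and WT 2 were almost level, and the log2 change of -0.70 (SE 0.23) missed the threshold (adjusted p = 0.0619). Without WT 2 it was called (log2 change -0.98, adjusted p = 0.00731), as it was by DESeq2 (-0.70, adjusted p = 0.0172). HLA-F, at far lower levels, had 10.3, 8.29 and 11.9 CPM in KO, against 20.6 and 11.4 CPM in WT. These groups overlapped, and the log2 change of -0.68 (SE 0.28, adjusted p = 0.113) was called when WT 2 was left out (-1.02, adjusted p = 0.0166).

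Of the 9 genes, 8 were higher in WT 1 than in WT 2, the 4 heavy chains by 1.64-fold to 2.08-fold, NLRC5 by 2.72-fold, TAP1 by 1.59-fold, TAP2 by 1.28-fold and TAPBP by 1.21-fold. B2M ran the other way, with WT 1 at 0.692 times WT 2. WT 1 was also the library with the higher small RNA share. The counts of the 4 heavy chains summed to 0.294, 0.292 and 0.323 of the B2M count in the KO libraries, against 0.876 in WT 1 and 0.316 in WT 2. The KO libraries thus lay beside WT 2 on this ratio, and WT 1 stood apart.

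B2M, the invariant light chain of all these molecules, had 1188, 1191 and 1537 CPM in KO, against 1260.3 and 1823 CPM in WT. The groups overlapped, and the log2 change of -0.27 (SE 0.21, adjusted p = 0.369) became -0.50 without WT 1 (adjusted p = 0.0611) and 0.05 without WT 2 (0.846). No change of B2M was therefore resolved by these 5 libraries.

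TAPBP was the gene of the set that rose. It had 188, 174 and 163 CPM in KO, against 107 and 88.8 CPM in WT. All KO libraries lay above both WT libraries, by at least 1.51-fold, and the spread within each group was small. The log2 change was 0.81 (SE 0.14, 1.75-fold higher, adjusted p = 0.00900), and TAPBP stayed called whichever of the 5 libraries was left out (log2 change 0.70 to 0.96, adjusted p 0.00353 to 0.0415). The ratio of TAPBP to HLA-E counts within a library was 2.89, 3.31 and 2.10 in KO, against 0.408 and 0.704 in WT.

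The transporter subunits had positive changes that did not pass the test. TAP2 had 21.9, 21.3 and 20.8 CPM in KO, against 17.7 and 13.8 CPM in WT, with no overlap (log2 change 0.41, SE 0.15, adjusted p = 0.0823). TAP1 had 48.9, 43.9 and 54.6 CPM in KO, against 46.7 and 29.4 CPM in WT, with overlap (log2 change 0.34, SE 0.21, adjusted p = 0.259). Without WT 1 both were called higher (TAP2 0.61, adjusted p = 0.0158, and TAP1 0.72, adjusted p = 0.0149).

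NLRC5, the activator of class I transcription, had 8.89, 9.40 and 13.0 CPM in KO, against 17.2 and 6.32 CPM in WT. The WT libraries differed by 2.72-fold and enclosed all 3 KO libraries, and the log2 change was -0.20 (SE 0.41, adjusted p = 0.738). Leaving out WT 1 gave 0.70 and leaving out WT 2 gave -0.72, neither called, so these libraries do not settle the direction of NLRC5.

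**Figure D2:**
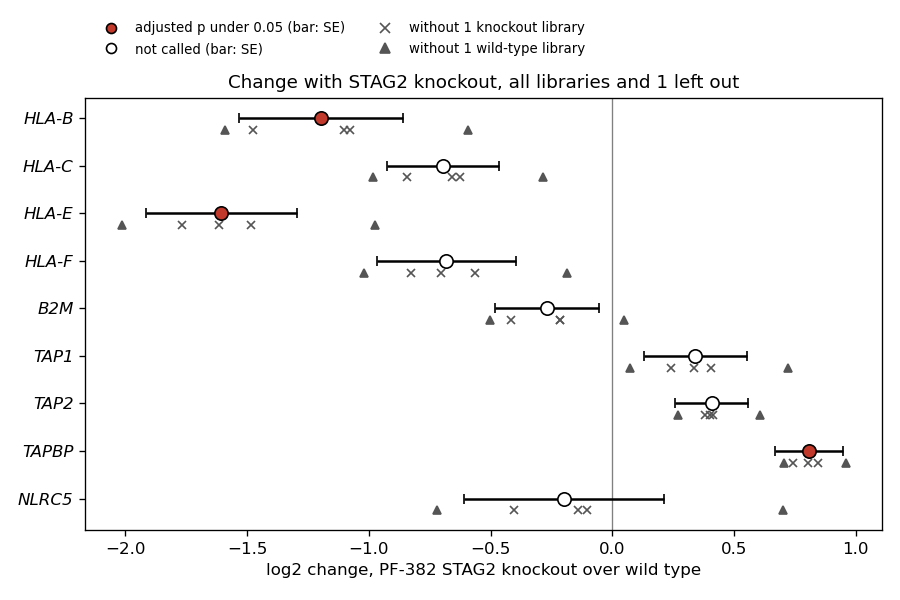
Log2 change of KO over WT in PF-382 for each gene (large circles, filled where called, bars 1 SE), with the value after leaving out 1 KO library (crosses) or 1 WT library (triangles) below it. Leaving out a WT library moves the value most for HLA-B, HLA-E and NLRC5, and TAPBP stays between 0.70 and 0.96.

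Other genes of the pathway were described by list in the same comparison, and no test was made of a list's count. The counts of each list stand against 15.8% higher and 14.6% lower of all genes tested. Among protein-coding genes tested these shares were 19.9% and 12.4%. Leaving out KO 1, KO 2 or KO 3 cut the calls over all genes from 5311 to 2649, 2344 and 2271, so list counts in those fits stand against fewer calls. Among 9 catalytic proteasome subunits and PA28 activator genes, 5 rose and 0 fell, with a median log2 change of 0.50. PSME3, which encodes the nuclear PA28 gamma activator, had 127, 105 and 105 CPM in KO, against 52.5 and 46.6 CPM in WT (log2 change 1.15, adjusted p = 0.00397). The constitutive subunit genes PSMB7 (0.63, adjusted p = 0.0109) and PSMB6 (0.53, adjusted p = 0.0138) rose, as did PSME2 (0.56, adjusted p = 0.0143) and PSME1 (0.50, adjusted p = 0.0250), which encode the PA28 subunits that interferon gamma induces. PSME2 and PSME1 are named after their values were seen. PSMB8, PSMB9 and PSMB10, the immunoproteasome subunit genes, were not called (log2 changes 0.25, 0.50 and 0.28, adjusted p 0.142 to 0.443), and are likewise named after their values were seen. The list's count ran from 1 to 8 higher when 1 library was left out, and PSME3 was called in all 5 such fits. PSMB7 lost its call without KO 2 (adjusted p = 0.0539), and PSMB6 without KO 1, KO 2 or KO 3 (0.0533 to 0.0665). PSME1 and PSME2 were not called in those 3 fits either, where 2, 1 and 2 genes of the list were called.

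Among 11 peptide loading and trimming genes, 2 rose and 0 fell, with a median of 0.35. SEC61A1, the pore subunit of the translocon through which new heavy chains enter the endoplasmic reticulum, had 178, 186 and 188 CPM in KO, against 111 and 100.6 CPM in WT (log2 change 0.77, adjusted p = 0.00622). UGGT1, which senses glycoprotein folding and acts on unstable class I molecules, rose (0.55, adjusted p = 0.0309) but lost its call without KO 1, KO 2, KO 3 or WT 1 (adjusted p 0.0520 to 0.0963). SPPL3, an intramembrane protease that trims glycosylation enzymes, had a log2 change of -0.39 (adjusted p = 0.0769). With 1 library left out, 1 to 5 genes of this list were called higher, and SEC61A1 was among them each time. Among 9 surface turnover and trafficking genes, 2 rose and 1 fell (median 0.18). BCAP31, an export receptor that carries class I molecules out of the endoplasmic reticulum, had 108, 115 and 115 CPM in KO, against 64.5 and 65.0 CPM in WT (log2 change 0.77, adjusted p = 0.00507). WWP2, a ubiquitin ligase, rose (0.97, adjusted p = 0.0135), and UBE2J1, a ubiquitin-conjugating enzyme of endoplasmic reticulum degradation, fell by 0.64 on the log2 scale (adjusted p = 0.0158). The calls of WWP2 and UBE2J1 were lost without KO 3 (adjusted p = 0.0528 and 0.0634), and that of UBE2J1 also without KO 2 (0.0610). BCAP31 kept its call in all 5 fits, in which 1 to 4 genes of the list were higher and 0 to 2 lower.

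Of 18 genes for factors that act on class I promoters, 2 rose and 1 fell (median 0.08). RFXANK, a subunit of the RFX complex with which NLRC5 works, had 74.3, 83.5 and 87.5 CPM in KO, against 44.1 and 33.1 CPM in WT (log2 change 1.06, adjusted p = 0.00653). IRF8 rose (1.05, adjusted p = 0.0179) and NFKB2, the p100 subunit of NF-kappa-B, fell by 0.99 on the log2 scale (adjusted p = 0.0211). Of 13 interferon signalling genes, 1 rose and 2 fell (median -0.02). IRF9 (log2 change -0.96, adjusted p = 0.0180) and STAT2 (-0.47, adjusted p = 0.0190), which act together downstream of type I interferon receptors, fell, and SOCS3, a feedback inhibitor of JAK kinases, rose (0.86, adjusted p = 0.0429). With a KO library left out, the calls of NFKB2, IRF9, STAT2 and SOCS3 were lost in each case (adjusted p 0.0620 to 0.145), and that of IRF8 without KO 2 (0.0745) or KO 3 (0.0729), whereas RFXANK kept its call in all 5 fits. SOCS3 was also lost without WT 2 (0.0912). Over these fits the promoter factors had 1 to 4 genes higher and 0 to 3 lower, and the signalling genes 0 to 1 higher and 0 to 3 lower.

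Of 9 listed MHC class II genes, 5 could be tested and 0 were called in edgeR, with 2 at an unadjusted p under 0.05, and DESeq2 called 1, HLA-DOA (adjusted p = 0.0154). HLA-DMA, a peptide-exchange chain, averaged 0.728 ± 0.080 CPM in KO and 1.49 ± 0.548 CPM in WT (SD, n = 3 and 2, log2 change -1.06, adjusted p = 0.0589). HLA-DOA, a regulator of that exchange, averaged 4.04 ± 1.45 CPM in KO and 10.0 ± 5.87 CPM in WT (log2 change -1.34, adjusted p = 0.0688), and HLA-DPA1, an antigen-presenting chain, had a log2 change of 1.58 (adjusted p = 0.239). Without WT 2, 3 class II genes were called lower, and without WT 1, 1 was called higher. HLA-DRB1, an antigen-presenting chain outside the list that is named after its value was seen, was called lower (log2 change -2.55, adjusted p = 0.0190). Of 16 class I-like and stress ligand genes, 12 could be tested, 0 rose and 1 fell (median -0.49). MICA, a ligand of the NKG2D receptor encoded beside HLA-B, had 3.27, 3.19 and 2.92 CPM in KO, against 6.35 and 8.65 CPM in WT (log2 change -1.29, adjusted p = 0.0103), and was called in all 5 fits with 1 library left out. CD1C, a lipid-presenting molecule, and MR1, which presents vitamin B metabolites, were not called (log2 changes -2.11 and -0.39, adjusted p = 0.0530 and 0.0743), though DESeq2 called both (0.00323 and 0.0481). With 1 library left out, 2 to 4 genes of this list were called lower.

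**Figure D3:**
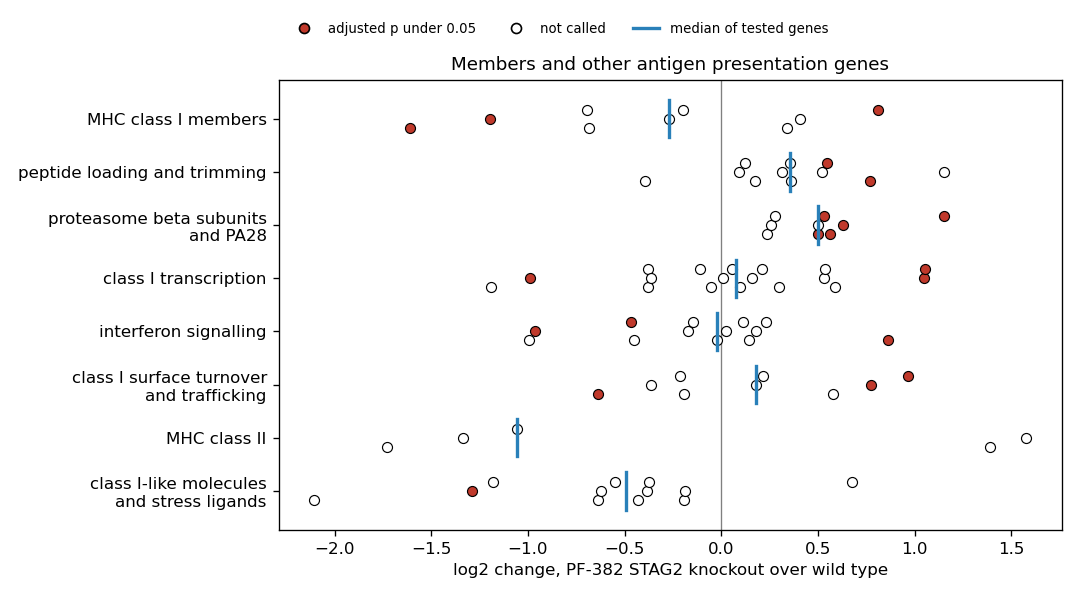
Log2 change of KO over WT in PF-382 (horizontal axis) for each tested gene of the 9-gene set and of 7 further lists (rows), filled where the adjusted p is under 0.05, with a bar at the median of the tested genes. The proteasome list lies wholly above 0 with a median of 0.50, and the class I-like list mostly below 0 with a median of -0.49.

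The interval between HLA-F and TAPBP on chromosome 6 spans 3.59 Mb and held 131 tested genes besides the 7 members. Of these, 20 rose and 33 fell in the knockout, so 40.5% were called, against 30.4% of all genes tested. The higher share was 15.3% and the lower share 25.2%, against 15.8% and 14.6% over all genes. Neighbouring genes share a region and are not independent, and no test was made of these shares. The median log2 change was -0.07.

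**Figure D4:**
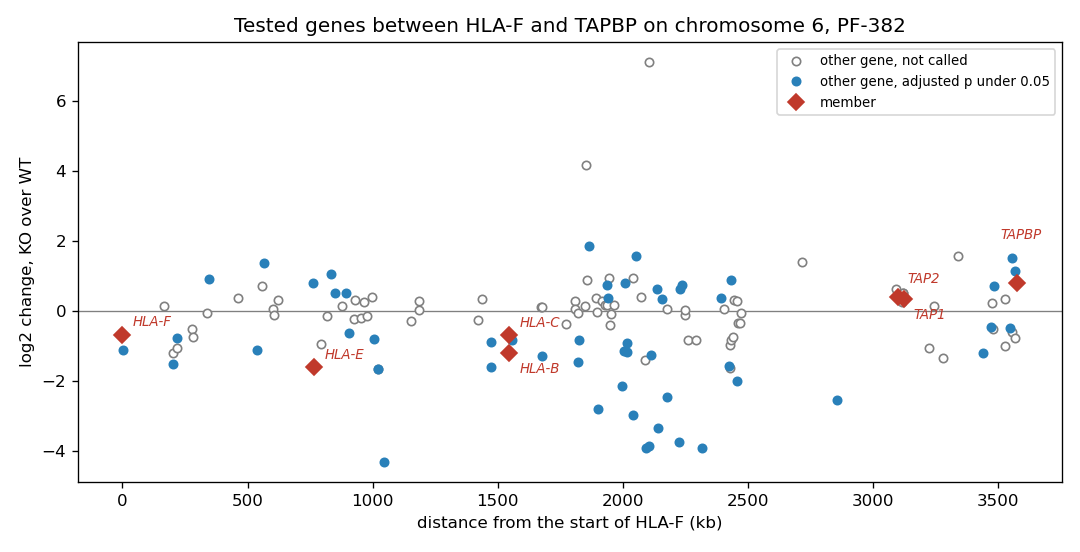
Log2 change of KO over WT in PF-382 (vertical axis) for tested genes by distance in kb of their lower end from the start of HLA-F (horizontal axis), with members as labelled diamonds and other called genes as filled circles. The 4 heavy chain members lie below 0, TAP1, TAP2 and TAPBP above it, and other called genes lie on both sides of 0.

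In MOLT-14, the STAG2-transduced library was compared with the EV library, with 1 library each and hence no replicate check and no test. HLA-F had 0 counts in both and could not be compared. None of the other members differed by 2-fold, as 1.83% of the 11123 genes of at least 5 CPM did (1.02% higher with STAG2, 0.800% lower). The median absolute log2 ratio over those 11123 genes was 0.18. NLRC5 differed most, with 2411 counts (48.0 CPM) in the STAG2-transduced library and 1245 counts (25.5 CPM) in the EV library, a log2 ratio of 0.91 (exact binomial 95% interval 0.81 to 1.01, 1.88-fold). TAP1 had 55.5 CPM with STAG2 and 45.4 CPM with EV (log2 ratio 0.29, interval 0.21 to 0.37), and TAP2 37.6 and 43.7 CPM in the same order (-0.22, interval -0.31 to -0.13). In CPM the subunits of the pump thus differed in opposite directions. In the authors' TPM, TAP1 had 13.7 TPM with STAG2 and 16.9 TPM with EV, and TAP2 11.8 and 15.5 TPM in the same order. Lower TPM with STAG2 was not particular to TAP1 and TAP2. Every other detected member except NLRC5 (17.2 TPM with STAG2, 13.6 TPM with EV) was lower too.

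On the TMM-scaled CPM the heavy chains were nearly level between these libraries. HLA-B had 56.9 CPM with STAG2 and 57.0 CPM with EV, a log2 ratio of 0.00 (interval -0.08 to 0.07). HLA-C had 118 CPM with STAG2 and 111 CPM with EV (0.08, interval 0.03 to 0.14), and HLA-E had 137 and 118 CPM in the same order (0.22, interval 0.16 to 0.27). B2M had 264 CPM with STAG2 and 259.6 CPM with EV (0.03, interval -0.01 to 0.06). TAPBP had 134 CPM with STAG2 and 147 CPM with EV (-0.13, interval -0.18 to -0.08). HLA-F had 0 counts in both libraries, which allows up to 0.0597 CPM with STAG2 and 0.0615 CPM with EV. Scaling by total counts in place of TMM turned HLA-C to -0.09 and B2M to -0.15, so the sign of differences this small depends on the scaling. The authors' TPM of HLA-B and HLA-C given above, and of HLA-E at 46.4 TPM with STAG2 and 60.8 TPM with EV, were lower with STAG2. So was that of B2M, at 349.8 and 512 TPM in the same order, though B2M and HLA-B were level in CPM. The lower TPM ran across the detected members except NLRC5, so it is not read as a change of single genes. The part of the small RNA share (9.27% with STAG2, 4.87% with EV) in it was not tested.

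PF-382 was then compared with MOLT-14, each line taken as the mean of its groups with and without STAG2 change, and the spread of the lone MOLT-14 libraries assumed to equal that within PF-382. HLA-B, HLA-C, HLA-F and B2M were higher in PF-382, TAP2 and NLRC5 were lower, and HLA-E, TAP1 and TAPBP were not called. This was 4 higher and 2 lower of 9, where of all 20100 genes 55.4% were called, 27.0% higher and 28.4% lower. The lines did not overlap for those same 6 genes, 4 with PF-382 above (26.3% of all genes) and 2 with PF-382 below (30.2%). The median log2 difference of all 9 genes was -0.10.

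B2M averaged 1400 CPM over the 5 PF-382 libraries and 262 CPM over the 2 MOLT-14 libraries, a log2 difference of 2.44 (SE 0.23, 5.41-fold, adjusted p = 0.000393). HLA-B averaged 265 CPM in PF-382 and 57.0 CPM in MOLT-14 (log2 difference 2.22, SE 0.36, 4.65-fold, adjusted p = 0.00278). For both genes every PF-382 library was above both MOLT-14 libraries. Reads of both lines were counted on the same reference genome, and the match of each line's HLA alleles to it was not tested. HLA-F ran from 8.29 to 20.6 CPM in PF-382 and was at 0 in MOLT-14, so its PF-382 mean was at least 203-fold higher than a floor of 3 counts per library (adjusted p = 9.24e-05). Its antisense partner HLA-F-AS1 held 18.0 counts in the STAG2-transduced and 21.9 in the EV library. HLA-C averaged 180.5 CPM in PF-382 and 115 CPM in MOLT-14 (log2 difference 0.68, SE 0.22, 1.61-fold, adjusted p = 0.0385). Its call was lost in several alternatives. Among them were the fits without KO 1 (adjusted p = 0.0587), KO 2 (0.0624) or KO 3 (0.0766), upper-quartile scaling (0.0793), and KO over EV alone.

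NLRC5 ran opposite to HLA-B, HLA-C and B2M: it averaged 10.9 CPM in PF-382 and 36.8 CPM in MOLT-14 (log2 difference -1.66, SE 0.35, 3.16-fold lower, adjusted p = 0.00779). TAP2 averaged 19.1 CPM in PF-382 and 40.7 CPM in MOLT-14 (log2 difference -1.14, SE 0.13, 2.21-fold lower, adjusted p = 0.000782). The ratio of TAP1 to TAP2 counts was 2.23, 2.06 and 2.63 in KO and 2.64 and 2.13 in WT, but 1.48 in the STAG2-transduced and 1.04 in the EV library. The ratio of the 4 heavy chains to B2M was 1.18 and 1.10 in the STAG2-transduced and EV libraries, above each PF-382 library. HLA-E was not called between the lines (log2 difference -0.18, adjusted p = 0.624), and its order depended on which groups were set together: 0.51 for WT over STAG2-transduced and -0.86 for KO over EV, neither called. TAP1 (-0.22, adjusted p = 0.374) and TAPBP (-0.10, adjusted p = 0.508) were close in the lines. Without WT 1, HLA-E (-0.51, adjusted p = 0.0337) and TAP1 (-0.42, adjusted p = 0.0197) were called lower in PF-382.

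**Figure D5:**
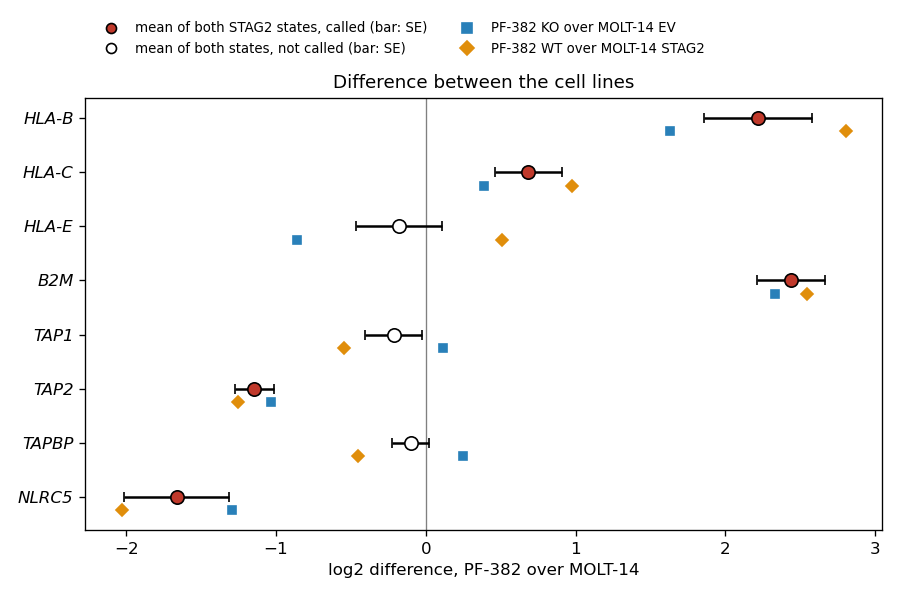
Log2 difference of PF-382 over MOLT-14 (horizontal axis) for 8 of the genes as the mean over both STAG2 states (circles, filled where called, bars 1 SE), and for KO over EV (squares) and WT over STAG2-transduced (diamonds). HLA-F is not drawn, since it is at 0 in MOLT-14. B2M and HLA-B stand above 1.6 in each comparison, NLRC5 and TAP2 below -1.0, and HLA-E, TAP1 and TAPBP on either side of 0.

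Whether the change with STAG2 state differed between the lines was tested as the KO over WT change minus the EV over STAG2-transduced change. The MOLT-14 part is transduction with STAG2 read in reverse. It is a different manipulation from the knockout, and line and manipulation cannot be told apart. Of the 9 genes 0 were called, and 0.607% of all genes were. DESeq2 called 0 as well, with 2 at an unadjusted p under 0.05. In edgeR 1 gene passed unadjusted, TAPBP, with a difference of 0.70 (SE 0.25, adjusted p = 0.179). HLA-E had -1.37 (SE 0.58, adjusted p = 0.244) and HLA-B -1.17 (SE 0.63, adjusted p = 0.336). With SE values of this size, and MOLT-14 spread taken from PF-382, these data do not show whether the changes in PF-382 are shared by MOLT-14. Without WT 2, HLA-E was called (-1.81, adjusted p = 0.0277), and without WT 1, TAPBP (0.82, adjusted p = 0.0478), TAP1 (1.01, adjusted p = 0.0465) and NLRC5 (1.61, adjusted p = 0.0497) were called.

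Profiles over the 7 libraries were compared by the root-mean-square difference of centred log2 CPM, where 0 would mean parallel profiles. The closest pair was TAP1 and TAPBP at 0.28, followed by TAP1 and TAP2 at 0.44, and HLA-B was closer to B2M at 0.59 than to HLA-C at 0.69. HLA-C lay nearest to the mean profile of the 9 genes (0.17), of which it is itself a part, and HLA-F, which is at 0 in MOLT-14, farthest (1.79). The mean profile was lowest in MOLT-14, at -0.43 in the STAG2-transduced and -0.56 in the EV library. HLA-F enters it there at the offset of 0.5 CPM added before the log. Outside the set, the genes with profiles nearest to that mean were CHST9 (0.054), CGRRF1 (0.072), AC055717.1 (0.072), THORLNC (0.091) and CETN4P (0.095). All 5 were higher in every PF-382 library than in both MOLT-14 libraries, which held for only 4 of the 9 members. They are therefore not read as genes that follow the set as a whole. Of these, CGRRF1 had 7.56 to 10.3 CPM in KO, 8.78 and 13.0 CPM in WT and 5.47 and 5.76 CPM in MOLT-14, and the other 4 stayed below 1.2 CPM in every library.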

How the data were processed

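Total RNA libraries of 2 cell lines were deposited as 1 table each. Reads were processed with STAR and RSEM on GRCh38/hg38, per the submitters' processing notes; versions, annotation release and strand setting are not given in the sources used here. Expected counts (estimated reads per gene, not normalized), TPM and FPKM stand in the deposited tables per the file headers. FPKM was used only for the implied lengths. Expected counts were rounded, 91.8% to 93.3% being whole already, and 92 ERCC features were left out.

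Fits used edgeR 4.0.16 in R 4.3.3 (TMM, filterByExpr, quasi-likelihood test, two-sided, Benjamini-Hochberg over all genes tested). KO against WT was fitted and scaled on PF-382 alone; line and difference contrasts used all 7 libraries in 4 groups. SEs came from the log2 change and the F statistic. MOLT-14 ratios were of TMM-scaled CPM, after adding a prior count of 2. The procedure was tested on simulated data.

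The 9 genes and all lists were chosen with earlier results of these data known. Named were all 9, STAG2, the 3 genes of smallest adjusted p per list, and the 5 nearest profiles. Alternatives were other scalings and filters, protein-coding genes alone, DESeq2 1.42.0 and leaving out each library. Replicate libraries differed beyond counting error for 57.8% to 71.2% of genes.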

Additional observations from a re-analysis of the deposited data

Results flagged for a closer look

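The difference between the lines, KO over WT minus EV over STAG2-transduced, was called in edgeR for 2 named genes outside the class I set. STAG2 itself had a difference of 5.80 on the log2 scale (adjusted p = 0.0477). It had 210.4 ± 40.4 CPM in KO and 450.4 ± 165 CPM in WT (SD, n = 3 and 2). In MOLT-14 it had 1.15 CPM in the EV library and 137 CPM in the STAG2-transduced library. STAG2 is the gene manipulated in both lines, by editing in PF-382 and by transduction in MOLT-14. Its call thus follows from the design and is not a finding about a response. CD68, one of the myeloid markers, had a difference of -9.60: it was at 0.098, 0.058 and 0.137 CPM in KO, against 7.41 and 8.03 CPM in WT, and at 1.99 CPM with EV, against 0.199 CPM with STAG2. In MOLT-14 each value rests on 1 library.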

How the results depend on the processing

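No result changed direction while called. TAPBP in PF-382 and B2M, HLA-B, HLA-F and TAP2 between the lines kept their calls under each alternative, except TAPBP with the libraries of SA title codes alone (0.90, adjusted p = 0.202). Those 1 KO and 2 WT libraries gave 306 calls (114 higher, 192 lower), of which 0 members higher and 0 lower in edgeR (3 at an unadjusted p under 0.05). Upper-quartile scaling moved the median of all genes to -0.18 for KO over WT, -0.19 between lines and -0.27 for their difference, so changes there are relative to it. It gave 1824 genes higher and 3566 lower in KO over WT, against 2763 higher and 2548 lower with TMM. HLA-C was called in KO over WT under that scaling (-0.87, adjusted p = 0.0381) and among protein-coding genes alone (-0.79, adjusted p = 0.0437). With 1 library left out, KO over WT had 2271 to 6304 calls (1194 to 3570 higher, 1077 to 2734 lower), with 1 to 3 members higher and 0 to 4 lower. Between lines, those fits had 9168 to 12744 calls (4486 to 5956 higher, 4682 to 6788 lower), with 3 to 4 members higher and 2 to 4 lower. WT over STAG2-transduced alone gave 6986 calls (3480 higher, 3506 lower), and KO over EV alone left 1 member lower, since NLRC5 lost its call (-1.29, adjusted p = 0.0635). The difference between lines depended most on the settings, with 122 calls as reported. It had 2203 calls in DESeq2 (1491 higher, 712 lower), 648 without a filter on low counts (448 higher, 200 lower), 73 with DESeq2 size factors (29 higher), 72 among protein-coding genes (22 higher) and 28 with upper-quartile scaling (3 higher, 25 lower). With 1 library left out it had 0 to 2296 calls (0 to 1580 higher, 0 to 716 lower), with 0 to 3 members higher and 0 to 1 lower. The 0 came without KO 1, KO 2 or KO 3, where 3359, 3033 and 3011 genes had an unadjusted p under 0.05 in edgeR. In MOLT-14, total counts in place of TMM gave 68 genes past 2-fold higher and 180 lower, against 114 and 89. The cause of these shifts was not tested, beyond the fewer libraries or genes an alternative holds. No paired analysis was possible because the labels give the groups no shared replicate numbers. Apart from HLA-F in MOLT-14, each of the 9 genes had at least 195 counts in every library, the lowest being NLRC5 in WT 2. An effect of depth was not tested.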
